A study of Mus musculus with 10 samples.

Results

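The low-density lipoprotein receptor family was followed here through 7 genes, Vldlr, Lrp1, Lrp2, Lrp4, Lrp5, Lrp6 and Lrp10, among the 55401 genes counted in mouse liver. All 7 were among the 12234 genes tested between genotypes. The genes were chosen by family membership together with the known higher levels of Vldlr and Lrp2 in the knockout, so that the genotype differences of the members are given below as a description. Whether a member passed the threshold is stated only in its count beside all genes and where a fit loses or gains it, and supports nothing. RNA of whole liver was sequenced from 5 WT mice and 5 mice with a liver-specific deletion of Thrb, the gene of thyroid hormone receptor beta, with 1 library per mouse. WT and Thrb-KO mice were littermates, labelled C57Bl6/J in the sample titles, fed standard chow and given no treatment. The Thrb-KO mice came from a cross of Thrb-loxP/loxP mice with Afp-Cre mice, in which Cre is driven by the alpha-fetoprotein promoter. Sex, age and the hour of collection were not given in the sources used here. Since whole liver was sequenced, more cells of a type and more RNA per cell cannot be told apart.

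Receptors of this family are single-pass membrane proteins with cysteine-rich ligand-binding repeats, and they carry lipoproteins, proteases, carrier proteins and signalling proteins into cells or present them to partner receptors. VLDLR binds triglyceride-rich lipoproteins and reelin and is known mainly from heart, skeletal muscle, adipose tissue and brain. LRP2, also called megalin, takes up filtered proteins in the proximal tubule of the kidney together with cubilin. LRP1 clears remnant lipoproteins and protease complexes in hepatocytes, LRP5 and LRP6 are co-receptors of Wnt proteins, LRP4 is the agrin receptor of the neuromuscular junction and can dampen Wnt signals, and LRP10 cycles between the Golgi and endosomes.

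The sequences just upstream of the start sites of Vldlr and Lrp2 are shown because these were the members with the largest genotype differences. Both were taken from RefSeq promoter windows (build GRCm38.p6) and end 1 base before the first base of the gene in the GENCODE annotation. The Vldlr stretch covers 250 bases at chr19:27216234-27216483 on the plus strand, and the Lrp2 stretch 214 bases at chr2:69586066-69586279 on the minus strand. Capitals would mark the letters AGGNCA on either strand, a loose form of the nuclear receptor binding element, and neither stretch held them in full. The first RefSeq window of Vldlr held 1 match, AGGACA, which begins in the last 5 bases of the printed stretch and runs across the start site.
Vldlr: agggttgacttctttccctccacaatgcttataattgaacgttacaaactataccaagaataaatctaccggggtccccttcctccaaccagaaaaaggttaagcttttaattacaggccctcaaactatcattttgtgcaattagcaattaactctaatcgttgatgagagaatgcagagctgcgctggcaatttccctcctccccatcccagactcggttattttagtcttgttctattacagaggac
Lrp2: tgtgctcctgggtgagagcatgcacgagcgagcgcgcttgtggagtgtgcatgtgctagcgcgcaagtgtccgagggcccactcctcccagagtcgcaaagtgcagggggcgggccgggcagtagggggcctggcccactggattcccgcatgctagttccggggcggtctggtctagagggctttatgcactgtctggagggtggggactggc
The Vldlr stretch was poor in G and C (41.6%, with 5 CpG) and the Lrp2 stretch rich in them (65.9%, with 13 CpG). A second RefSeq start of Vldlr lies downstream of the first, and its window held 68.0% G and C and 1 AGGNCA. Of all 32851 RefSeq windows of 300 bases, 57.2% held AGGNCA on either strand and 16.3% held AGGTCA. The strict half-site AGGTCA was in none of the 5 windows found for the members (Lrp1, Lrp10, Lrp2 and both of Vldlr), nor were its direct repeats with a spacer of 4 bases (0.0152% of all windows) or 1 base (0.0396%).

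The 10 libraries held 26477195 to 28590704 counts each, and 3 counts corresponded to between 0.0993 and 0.117 normalized CPM (counts scaled to the TMM-normalized library size). Thrb itself was 33.3 ± 0.643 normalized CPM in WT and 26.7 ± 1.93 in Thrb-KO (SD, n = 5 each), with every Thrb-KO mouse below every WT mouse, counted over the whole gene and not over its deleted part alone. Dio1, the deiodinase gene used as a readout of hepatic thyroid hormone action, was 166 ± 25.5 in WT and 20.3 ± 5.06 in Thrb-KO. Adipocyte genes were present in the livers of Thrb-KO mice 1, 4 and 5. Vldlr, Lrp2, Lrp1 and Lrp4 are given with and without those mice, as are the directions of list genes named as risen or fallen.

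Vldlr was low in WT liver, though above the floor of 3 counts, and higher in every Thrb-KO liver. The 5 WT mice had 0.568, 0.455, 1.001, 0.703 and 0.636 normalized CPM, from 13 to 28 counts each. The 5 Thrb-KO mice had 3.47, 1.84, 2.30, 1.56 and 1.95, from 47 to 100 counts. The lowest Thrb-KO mouse, number 4, lay above the highest WT mouse, number 3, and Thrb-KO mouse 1 was the highest of all 10. The means were 0.672 ± 0.205 and 2.22 ± 0.748 (SD, n = 5 each), a fitted log2 fold change of 1.72 (SE 0.27) or 3.29-fold. Vldlr lies on chromosome 19 at 27216484 to 27254231 (GRCm38, plus strand), and its exons overlapped no other annotated gene.

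Lrp2 differed more between the genotypes than Vldlr and was more uneven among the Thrb-KO mice. The WT mice had 1.48, 1.01, 1.18, 0.664 and 0.599 normalized CPM, from 16 to 39 counts. The Thrb-KO mice had 4.31, 2.40, 4.39, 8.08 and 7.50, from 64 to 244 counts. Every Thrb-KO mouse was above every WT mouse, with mice 4 and 5 the highest and mouse 2 the lowest. The means were 0.986 ± 0.365 in WT and 5.33 ± 2.39 in Thrb-KO (SD, n = 5 each), a log2 fold change of 2.43 (SE 0.35) or 5.39-fold. Vldlr and Lrp2 did not follow the same order among the Thrb-KO mice, since mouse 4 was the lowest for Vldlr and the highest for Lrp2. Lrp2 lies on chromosome 2 at 69424340 to 69586065 (GRCm38, minus strand), and its exons overlapped no other annotated gene.

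**Figure D1:**
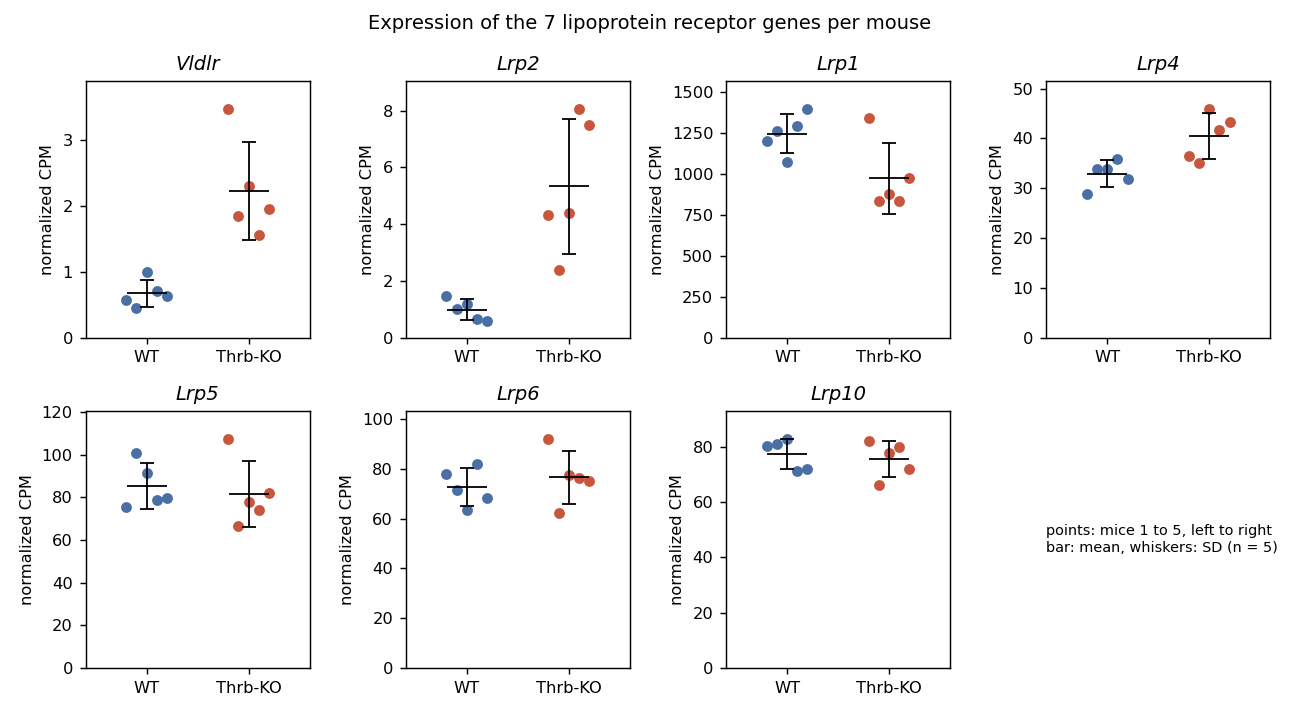
Normalized CPM (linear axes from 0) of the 7 receptor genes in each of 5 WT (blue) and 5 Thrb-KO (red) mice, mice 1 to 5 from left to right, with the mean and SD in black. For Vldlr (WT up to 1.001, Thrb-KO from 1.56) and Lrp2 (WT up to 1.48, Thrb-KO from 2.40) the genotypes do not overlap, and for the other 5 genes they do.

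Lrp1, by far the most expressed member, had a lower mean in Thrb-KO, with 1 mouse going against the others. The WT mice had 1203, 1262, 1073, 1291 and 1399 normalized CPM. The Thrb-KO mice had 1344, 835, 877, 833 and 974. Thrb-KO mice 2 to 5 were below every WT mouse, whereas mouse 1 was above all WT mice but number 5. The means were 1245 ± 120 and 973 ± 215 (SD, n = 5 each), a log2 fold change of -0.36 (SE 0.14). Without Thrb-KO mouse 1 the log2 fold change was -0.50. Lrp1 lies on chromosome 10 (127538161 to 127621148, minus strand).

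Lrp4 was slightly higher in Thrb-KO, with overlapping mice. The WT mice had 28.9, 33.9, 34.0, 35.9 and 32.0 normalized CPM. The Thrb-KO mice had 36.5, 35.1, 46.0, 41.7 and 43.2. Thrb-KO mouse 2 was the only one within the WT range. The means were 32.9 ± 2.67 and 40.5 ± 4.600 (SD, n = 5 each), a log2 fold change of 0.30 (SE 0.090).

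The genotype means of the remaining receptors differed by less than the SD between mice. The Wnt co-receptor Lrp5 was 85.3 ± 10.7 in WT and 81.7 ± 15.5 normalized CPM in Thrb-KO (log2 fold change -0.063, SE 0.13). Its partner Lrp6 was 72.7 ± 7.50 and 76.6 ± 10.6 (0.075, SE 0.10). Lrp10 was 77.5 ± 5.43 and 75.6 ± 6.59 (-0.036, SE 0.079), and 475 bases of its exons are shared with the antisense gene Gm10366 in GENCODE. Strand was not used in counting and ambiguous reads were left out, so where both genes were annotated the reads there are missing from Lrp10. In Thrb-KO mouse 1, Lrp5 (108) and Lrp6 (92.1) were, like Lrp1, the highest of the Thrb-KO mice, and in Thrb-KO mouse 2 Lrp5 (66.7), Lrp6 (62.2) and Lrp10 (66.0) were the lowest of all 10 mice.

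At an adjusted p below 0.15, 3 members were higher in Thrb-KO (Vldlr, Lrp2 and Lrp4) and 0 lower. Over the 12234 genes tested 4.08% passed in either direction, 1.51% higher and 2.57% lower. The edgeR adjusted p of Lrp4 was just below 0.15, and Lrp4 was called in only 7 of 22 alternative fits. Lrp1 was called, as lower in Thrb-KO, in 2 of the 22, with limma-voom and without Thrb-KO mouse 1. The genotypes did not overlap for 2 members, both higher in Thrb-KO, beside 1.38% of genes tested that were apart and higher and 2.26% apart and lower. The members were selected on this contrast, so nothing is read from these counts. Vldlr reached 1 CPM in 1 WT mouse and 5 Thrb-KO mice and Lrp2 in 3 and 5, so that both passed the filter on low values (1 CPM in at least 5 libraries) only with the Thrb-KO mice.

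The receptors differed in level per exon length by about 3 orders of magnitude on the scale of RPKM, the normalized CPM divided by the exon length in kilobases. In WT liver Lrp1 was at 70.3 ± 6.78 RPKM, Lrp10 at 17.4 ± 1.22, Lrp5 at 8.76 ± 1.09, Lrp6 at 5.32 ± 0.548, Lrp4 at 3.14 ± 0.254, Vldlr at 0.0668 ± 0.0204 and Lrp2 at 0.0591 ± 0.0218 (SD, n = 5). Neighbours in this order did not overlap between mice except Vldlr and Lrp2. In Thrb-KO liver Lrp2 (0.319 ± 0.143 RPKM) and Vldlr (0.221 ± 0.0743) still stood last and overlapped, below Lrp4 at 3.85 ± 0.438. Lrp1 made up 66.8% ± 3.06 of the summed RPKM of the 7 genes in WT and 60.5% ± 3.34 in Thrb-KO. Vldlr made up 0.0644% ± 0.0232 and 0.241% ± 0.0432, and Lrp2 0.0570% ± 0.0231 and 0.360% ± 0.175. Per length, Lrp1 was thus 1367 ± 627 times Lrp2 in WT liver and 206 ± 102.2 times in Thrb-KO liver.

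**Figure D2:**
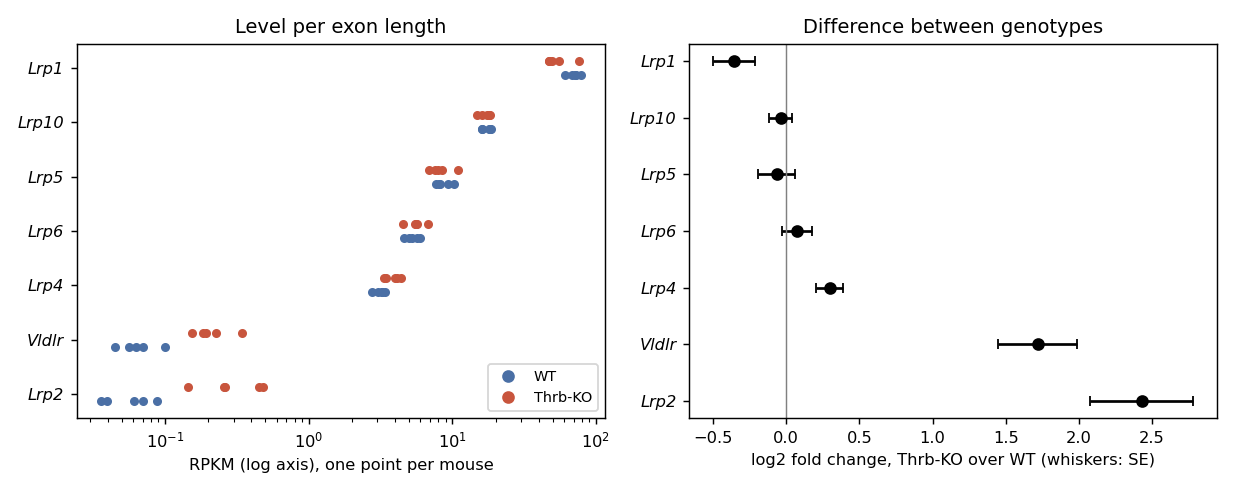
Left, RPKM (log axis) of each member in each mouse, blue for WT and red for Thrb-KO. Right, the fitted log2 fold change of Thrb-KO over WT with its SE. Vldlr and Lrp2 are lowest in level and have the highest fold changes (1.72 and 2.43), and Lrp1 is highest in level and has the lowest (-0.36).

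The livers of Thrb-KO mice 1, 4 and 5 carried RNA of adipocyte genes. Adipoq (adiponectin), Plin1 (perilipin of fat droplets), Lep (leptin) and Retn (resistin) summed to 10.9, 0, 0.0343, 19.96 and 16.3 normalized CPM in Thrb-KO mice 1 to 5, and to at most 0.0357 in any WT mouse. Of the 5 adipocyte markers listed, Adipoq, Plin1 and Lep were at 0 counts in all WT mice, and only Cidec was abundant enough to be tested. Both Lrp2 and Cidec were highest in mice 4 and 5, while Lrp2 was 4.31 in mouse 1 and 4.39 in mouse 3. A part of adipocyte RNA in the difference of Lrp2 was not tested. Without Thrb-KO mice 1, 4 and 5, Thrb-KO mice 2 and 3 were left, with Vldlr at 1.84 and 2.30 and Lrp2 at 2.40 and 4.39. That these lie above every WT mouse follows from all 5 Thrb-KO mice doing so, and is no test. The log2 fold change of Vldlr was then 1.62 (SE 0.29, 3.08-fold), close to its value with all mice, and that of Lrp2 was 1.79 (SE 0.35, 3.45-fold in place of 5.39-fold). Lrp1 then had a log2 fold change of -0.53 (SE 0.14), with both remaining Thrb-KO mice below every WT mouse. Lrp4 had 0.31 (SE 0.13) and was no longer called. With the marker sum as a covariate the log2 fold changes were 1.68 for Vldlr and 1.73 for Lrp2. That covariate correlated with the genotype at 0.65, since only Thrb-KO mice reached a marker sum of 1 normalized CPM. Adipocyte RNA and genotype can thus not be fully told apart in these mice.

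**Figure D3:**
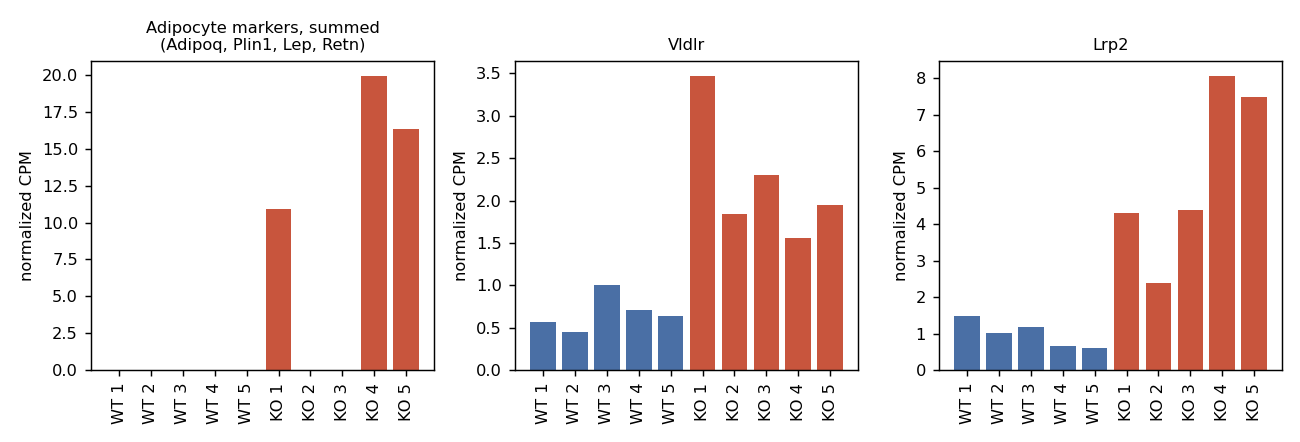
Normalized CPM per mouse (bars from 0) of 4 summed adipocyte markers, of Vldlr and of Lrp2, blue for WT and red for Thrb-KO (KO). The markers reach 10.9, 19.96 and 16.3 in Thrb-KO mice 1, 4 and 5, while Vldlr and Lrp2 are above the WT mice in all 5 Thrb-KO mice.

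Markers of kidney proximal tubule and of striated muscle were nearly absent. Brain markers were not examined. The 6 kidney proximal tubule markers summed to at most 0.214 normalized CPM in any mouse, with Slc5a12 at 0 throughout, and Cubn, the partner of megalin, was 0.0969 ± 0.0611 in WT and 0.104 ± 0.0466 in Thrb-KO. The 6 striated muscle markers summed to at most 0.8999, with Myh6 at 0 throughout. The summed markers of hepatocytes (22479 to 31236 in WT, 21271 to 31544 in Thrb-KO) and of cholangiocytes, endothelial, stellate and Kupffer cells overlapped between the genotypes. The Kupffer cell sum had a median of 266 in WT (83.2 to 328) and 145 in Thrb-KO (93.3 to 202), and its 6 genes had log2 fold changes of -2.003 to -0.38. At an adjusted p of 0.15, edgeR called 0 of them (3 at an unadjusted p below 0.05), DESeq2 1 and limma-voom 0. Its part in the receptors' differences was not tested. Among the genes of these liver cell lists only Des, a stellate cell marker, passed the test (log2 fold change 0.67, SE 0.15, edgeR adjusted p 0.057).

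A larger difference between the genotypes lay in acute-phase genes, which hepatocytes turn up in inflammation. Of 18 tested, 13 fell in Thrb-KO and 0 rose, beside 2.57% lower and 1.51% higher over all genes tested. The first principal component of the 18 was lower in every Thrb-KO mouse (-1.25 to -0.199) than in every WT mouse (-0.0078 to 1.63). With that component as a covariate, the log2 fold changes of Vldlr (1.20) and Lrp2 (1.66) kept their sign and no longer passed the threshold, while 7 genes passed it over all genes tested. The component and the genotype cannot be told apart in these mice.

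Among other receptors of the wider family, 1 of 6 tested passed the threshold and 5 of 11 were too low to test. For this and the following lists, the share over all 12234 genes tested was 4.08%, with 1.51% higher and 2.57% lower. Lrp11 fell from 3.54 ± 1.10 to 1.93 ± 0.43 normalized CPM (log2 fold change -0.88, SE 0.24, edgeR adjusted p 0.11). Sort1, the sorting receptor sortilin, was 33.4 ± 8.31 and 26.4 ± 7.70 (-0.34, adjusted p 0.57), and Lrp3 was 29.3 ± 4.09 and 29.02 ± 1.88. Lrp8, the second reelin receptor beside VLDLR, was below the floor on average in Thrb-KO (0.108 ± 0.0971 and 0.0568 ± 0.0421). None of 9 tested chaperones, adaptors and degraders passed the edgeR test at an adjusted p of 0.15. Of these, 1 (Gipc1, named after its value was seen) had an unadjusted edgeR p below 0.05, and DESeq2 and limma-voom called 0. They include Lrpap1, the chaperone that keeps ligands off the receptors in the endoplasmic reticulum (38.7 ± 2.26 and 39.1 ± 3.48), and Mylip, the ubiquitin ligase that degrades VLDLR (7.65 ± 1.21 and 7.26 ± 0.679).

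Of 11 tested ligands, 2 rose and 1 fell. Hepatic lipase (Lipc) rose from 117 ± 12.3 to 155 ± 20.2 normalized CPM (log2 fold change 0.41, SE 0.10, edgeR adjusted p 0.077), with the genotypes apart. Rbp4, the retinol carrier that megalin takes up, rose by 0.45 on the log2 scale (SE 0.12, adjusted p 0.10). Hemopexin (Hpx), the heme carrier cleared by LRP1 and an acute-phase protein, fell by 0.93 (SE 0.22, adjusted p 0.059). Lpl, the lipase bound by VLDLR, was 14.3 ± 5.93 in WT and 35.6 ± 17.2 in Thrb-KO (1.31, SE 0.40, adjusted p 0.18). Its mice overlapped (6.92 to 22.4 and 15.4 to 55.0), and a part of adipocyte RNA in this difference was not tested. Clu (-0.34, SE 0.10, edgeR adjusted p 0.155) and Pzp (-0.34, SE 0.12, edgeR adjusted p 0.24) also missed the threshold. For Clu the genotypes were apart (WT from 1780, Thrb-KO up to 1760). The vitamin D carrier Gc was 6379 ± 334 and 6397 ± 474.

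Of 15 tested Wnt partners of LRP5 and LRP6, only the R-spondin receptor Lgr4 passed, falling by 0.35 on the log2 scale (SE 0.10, edgeR adjusted p just below 0.15). Rspo3 (log2 fold change 0.54), Znrf3 (0.21) and Fzd8 (-0.57) missed the threshold with an unadjusted edgeR p below 0.05. The genotypes were narrowly apart for Rspo3 (WT up to 2.32, Thrb-KO from 2.33). Of 11 shedding and cleavage enzymes and inhibitors, only Timp3, an inhibitor of the sheddases, passed, rising from 6.32 ± 0.731 to 10.005 ± 2.33 (0.66, SE 0.17, edgeR adjusted p 0.074). None of 11 other uptake receptors passed the edgeR test at an adjusted p of 0.15, where 1 (Lsr) had an unadjusted p below 0.05 and DESeq2 and limma-voom called 0. Among them the asialoglycoprotein receptor Asgr1 was 499 ± 67.9 and 512 ± 91.8, and the syndecan Sdc1 was 306 ± 53.5 and 265 ± 9.71.

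Genes of pathways known to act on Vldlr elsewhere were read from lists. Of 20 PPAR alpha targets 4 rose and 0 fell, beside 1.51% higher and 2.57% lower over all genes tested. The median log2 fold change of the 20 was 0.47, beside 0.00054 over all genes tested. The 4 were the fatty acid metabolism genes Acot1 (2.19, SE 0.53, edgeR adjusted p 0.083), Ehhadh (0.78, adjusted p 0.043), Cpt2 (0.34, adjusted p 0.11) and Acadl (0.31, adjusted p 0.14). Of 13 integrated stress response genes 2 rose, Nupr1 (1.51, SE 0.35, adjusted p 0.060) and Herpud1 (0.36, SE 0.10, adjusted p 0.12). Of 10 thyroid hormone targets Dio1 fell by 3.03 on the log2 scale and Me1, malic enzyme, rose (0.79, SE 0.19, adjusted p 0.065). None of 15 clock genes passed at an adjusted p of 0.15 (1, Per3, at an unadjusted edgeR p below 0.05, 0 by DESeq2 and limma-voom). Without Thrb-KO mice 1, 4 and 5, every list gene named above as risen or fallen kept its direction, and of these Dio1 alone passed the threshold, with 2 Thrb-KO mice left.

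**Figure D4:**
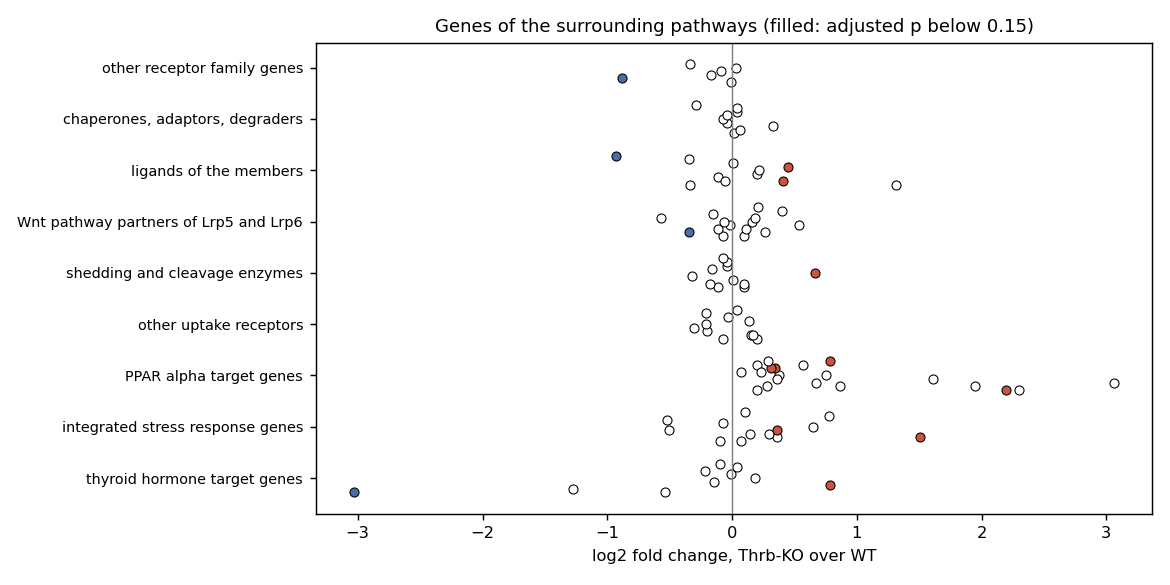
Log2 fold change of Thrb-KO over WT for each tested gene of 9 lists around the receptors, filled (red higher, blue lower) where the edgeR adjusted p was below 0.15. Among those passing were 1 of 6 other receptors, 3 of 11 ligands, 4 of 20 PPAR alpha targets and 0 of 9 chaperones and adaptors. Over all 12234 genes tested 4.08% passed.

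The genes most like Vldlr over the 10 mice, by the root mean square difference of centred log2 CPM, were Cyp46a1 (0.404), Ces1e (0.406) and Clstn3 (0.409). Those most like Lrp2 were Nupr1 (0.594), Cidec (0.638) and Grm8 (0.652). Cidec is one of the adipocyte markers, and without Thrb-KO mice 1, 4 and 5 its log2 fold change was 0.55 in place of 1.51 and that of Nupr1 0.95 in place of 1.51. The ranking was not made without these mice. Lrp2 ranked 873 in likeness to Vldlr and Vldlr 20 in likeness to Lrp2, with the same difference of 0.784. These values are a description over 10 libraries that include the contrast itself.

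The nearest annotated protein-coding genes could be compared for Lrp2 but not for Vldlr. Both neighbours of Vldlr, Gm815 (328 kb away) and Kcnv2 (68.4 kb), had 0 counts in all 10 mice. Dhrs9, 19.8 kb from Lrp2, was 1.33 ± 0.815 in WT and 3.38 ± 2.001 normalized CPM in Thrb-KO (log2 fold change 1.33, SE 0.48, edgeR adjusted p 0.25), in the same direction as Lrp2 and short of the threshold. Bbs5, 61.1 kb away on the other side, was 2.94 ± 0.509 and 2.59 ± 0.385 (adjusted p 0.69).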

How the data were processed

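Liver RNA of 5 WT and 5 Thrb-KO mice was sequenced from DNBSEQ stranded mRNA libraries. The authors mapped reads on mm10 with HISAT2 2.2.1 and deposited raw counts per Ensembl gene made with HTSeq 0.9.1, ignoring strand and leaving out reads with several or ambiguous positions (versions from the submitters' processing notes). The count filter, the TMM normalization and the threshold follow their methods. A table of the whole series with the authors' own comparison was not used.

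Genes reaching 1 CPM in 5 or more libraries entered the test, made with edgeR 4.0.16 (quasi-likelihood, robust, R 4.3.3), Benjamini-Hochberg adjusted over 12234 genes, at an adjusted p of 0.15. Normalized CPM used TMM library sizes. RPKM divided these by merged exon lengths of GENCODE M21, not the release that was counted. Of 55401 identifiers 260 had no symbol there. Counting error alone limits genes near 3 counts, and p-values set the genotype difference against the spread between mice. The fit was tried on simulated counts, where it called 49.2% of genes changed by a log2 fold of 0.5. It called 88.1% of those changed by 1, 98.5% of those changed by 2 and 0.243% of unchanged genes. The changed genes were picked at random from all genes tested, so these shares were not measured at the low levels of Vldlr and Lrp2. Each gene was drawn independently, so variation shared by genes within a mouse was not simulated. DESeq2 1.42.0 and limma-voom (limma 3.58.1) were among the alternatives.

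The members and lists were chosen with earlier results of these data known, and do not cover the whole family. Named were the members, Thrb, Dio1, from each list the genes called (at most 5) and the 2 most expressed (2 of these genes are not reported here), the neighbours of Vldlr and Lrp2, and the 3 genes most like each. Further genes were named after their values were seen: Lrp8, Cubn, Mylip, Lpl, Clu, Pzp, Rspo3, Znrf3, Fzd8 and Adipoq, Plin1, Lep and Retn. Same-numbered mice did not deviate together (correlations -0.20 to 0.0091), so numbers were not taken as pairs.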

Additional observations from a re-analysis of the deposited data

Results flagged for a closer look

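Values of 1 mouse that lay far from the other 4 of its genotype were looked for in 152 groups of 5 mice. There were 9 such values, where chance gives about 1 in 20 groups, or 7.6. Among the receptors this was Lrp1 in Thrb-KO mouse 1, at 1344 normalized CPM where the others had 833 to 974. In the same mouse Fga, a fibrinogen chain, was at 11612 (others 5498 to 6983). Thrb-KO mouse 2 stood apart in total counts (27779196, others 28441288 to 28590704), Hpx (7830, others 4136 to 5192), Asgr1 (673, others 452 to 498) and Lcn2 (30.2, others 6.32 to 11.9). Nupr1, the gene most like Lrp2, was at 2.91 in Thrb-KO mouse 4 (others 0.995 to 1.32). In WT, Acot1 was at 5.31 in mouse 4 (others 0.489 to 1.80) and Fasn at 3766 in mouse 5 (others 821 to 1302).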

How the results depend on the processing

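Over the 22 alternative fits Vldlr and Lrp2 had log2 fold changes of 1.20 to 1.91 and 1.66 to 2.62. Both were lowest in the fit with the acute-phase component, where neither was called. The 2 genes were chosen for their rise in these same mice, so a kept direction in these fits supports nothing. Over all genes 499 passed, and 885 with DESeq2, 849 with limma-voom, 348 with the replicate block, 7 with the acute-phase component, 185 without the 3 Thrb-KO mice with adipocyte markers, 125 with their marker sum as a covariate (both chosen after seeing the data) and 165 at 0.05. With 1 mouse left out it was 222 (without Thrb-KO mouse 3) to 665 (without Thrb-KO mouse 1), and 227 and 239 without WT mice 2 and 5. The cause of these shifts was not tested, except that the fits without 3 mice hold fewer samples. Same-numbered mice did not deviate together, and 0 WT mice correlated best with their own number.

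Counts per list moved as follows. The acute-phase component left 0 members, other family receptors, ligands, Wnt partners, shedding enzymes, PPAR alpha targets, stress response genes and acute-phase genes, and 1 thyroid target. Without the adipocyte-marker mice there were 0 other family receptors, Wnt partners, shedding enzymes, PPAR alpha targets, stress genes and acute-phase genes, 1 ligand (Reln), 1 other uptake receptor (Cd36) and 1 thyroid target (Dio1), and with the marker covariate 0 of each of these lists but 1 thyroid target. At 0.05 there were 1 PPAR alpha target, 1 thyroid target, 6 acute-phase genes and 0 other family receptors, ligands, Wnt partners, shedding enzymes and stress genes. The replicate block left 0 other family receptors, 1 ligand, 0 Wnt partners and 1 stress gene, the clock component 0 other family receptors, Wnt partners and shedding enzymes, 2 PPAR alpha targets, 1 stress gene and 1 thyroid target. RLE normalization and no robust settings left 0 Wnt partners, DESeq2 gave 6 ligands and 10 PPAR alpha targets, limma-voom 5 ligands, and no filter 2 PPAR alpha targets. Leaving out 1 mouse gave 2 to 4 members, 0 to 1 other family receptors, Wnt partners and shedding enzymes, 1 to 4 ligands, 1 to 10 PPAR alpha targets, 0 to 2 stress genes, 1 to 2 thyroid targets and 7 to 15 acute-phase genes.

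Of 1359 single-gene values under an alternative 49 changed sign. With the acute-phase component Fasn (0.31), Furin (-0.042), Hpx (0.081), Lrp3 (0.077), Lrp6 (-0.035), Pck1 (-0.11), Psen2 (0.31), Saa2 (0.29), Sdc1 (0.19) and Stab2 (0.053) did so. Others were Asgr1 (-0.015) and Lrp3 (0.0048) with limma-voom, Gc with upper-quartile normalization (-0.00069) and no filter (-0.0025), Lrp6 (-0.0016), Pck1 (-0.041) and Psen2 (0.027) with the clock component, Lrp6 (-0.052) and Stab2 (0.0088) without the adipocyte-marker mice, and Lrp6 (-0.041), Psen2 (0.0049) and Stab2 (0.037) with the marker covariate. With 1 mouse left out the log2 fold change ranged from -0.077 to 0.078 for Asgr1, -0.032 to 0.22 for Cyp2e1, -0.73 to 0.066 for Fasn, -0.024 to 0.044 for Gc, -0.068 to 0.014 for Lrp10, -0.066 to 0.059 for Lrp3, -0.18 to 0.0066 for Lrp5, -0.027 to 0.045 for Lrpap1, -0.074 to 0.17 for Pck1, -0.088 to 0.031 for Psen2 and -0.11 to 0.047 for Stab2.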

Other observations

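Other genes known from fat were also high in Thrb-KO mice 1, 4 and 5, and were chosen after their values were seen. Ucp1, the uncoupling protein of brown fat, had 6.84, 0, 0, 2.12 and 23.4 normalized CPM in Thrb-KO mice 1 to 5 and 0 in all WT mice. Cfd, the adipsin gene, had 17.3, 0.562, 0.103, 38.0 and 22.6, against at most 0.105 in WT. Fabp4 had 21.9, 7.69, 5.18, 37.7 and 40.5, against 3.67 to 5.40 in WT. Ucp1 was highest in mouse 5 and Cfd in mouse 4, so the 3 livers did not carry these genes in 1 ratio.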
